A study of Mus musculus with 12 samples.

Results

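The choroid plexus makes cerebrospinal fluid, and 9 genes known from its epithelium were followed here in whole brains of mouse embryos. The genes are Ttr, Folr1, Kcne2, Calml4, Clic6, Aqp1, Slc4a5, Kl and Otx2, taken by symbol from the 40690 gene identifiers of the deposited count table. All 9 were found, and all 9 were among the 16002 genes that passed the filter on low counts.

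The 12 libraries were made from oligo-dT selected RNA, each from the whole brain of 1 C57BL/6J embryo (embryonic day 14.5), and fall into 4 groups of 3. In the LC1 experiment, female embryos labelled LC1 knockout (embryos 7, 22 and 71) were compared with female wild types (6, 26 and 73). The RKI experiment set A1, A10 and A18, which carry the rs77910749 knock-in on both alleles, against A2, A9 and A16, wild type for it, with 1 female and 2 males on each side. No Cre, transgene or treatment is named in the labels. The protocol states that mutants and wild types were matched by sex and litter, but no label names a litter or says how many founder lines stand behind either allele, so p-values measure the spread between these embryos.

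The epithelium of the choroid plexus is a single layer of ciliated secretory cells that arises from the dorsal midline of the brain ventricles. It moves ions and water from blood into cerebrospinal fluid, carries folate and thyroid hormone into the brain, and is already present in each ventricle at midgestation. In RNA from a whole brain these cells are a small fraction. Fewer choroid plexus cells, less RNA per cell and RNA of the same genes from other cells cannot be told apart in these values. Otx2, for one, also acts in midbrain and diencephalon.

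Libraries held 18192984 to 26566769 counts, of which the 9 genes together took 0.0661% to 0.0913%. CPM are counts scaled to a common library size with TMM factors, and RPKM, which also divides by gene length, is used where genes are compared with each other. Embryo 6, an LC1 wild type, and embryo A16, an RKI wild type, stood apart in these genes, and the leading values of each comparison are also given without them where they moved. A16 also had the lowest summed level of 16 measured midbrain and diencephalon genes, 317 CPM against 425 to 539 CPM in the other 11 libraries. Embryo 6 had the highest sum of 15 meninges and mesenchyme genes, 1494 CPM against 1065 to 1404 CPM elsewhere.

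The carriers came first in level. Ttr encodes transthyretin, the thyroid hormone and retinol carrier that the epithelium secretes into cerebrospinal fluid. Its mean was 519 ± 49.1 RPKM (SD, n = 12), and it supplied most of the counts of the 9 genes in every library. In LC1 wild types 6, 26 and 73, Ttr lay at 764, 610 and 566 CPM, and in knockouts 7, 22 and 71 at 613, 604 and 533 CPM. The RKI values were 651, 677 and 711 CPM for wild types A2, A9 and A16 and 624, 614 and 637 CPM for homozygotes A1, A10 and A18. Embryo 6 was the highest of all 12 and embryo 71 the lowest, the LC1 groups overlapped, and each RKI homozygote was below each RKI wild type. Folr1, the folate receptor that carries folate across the epithelium, was far lower at 4.72 ± 0.481 RPKM (SD, n = 12). Folr1 lay at 13.7, 11.2 and 10.98 CPM in LC1 wild types 6, 26 and 73 and at 11.5, 9.95 and 9.90 CPM in knockouts 7, 22 and 71. Its RKI values were 9.65, 10.4 and 11.98 CPM for wild types A2, A9 and A16 and 10.9, 10.1 and 10.1 CPM for homozygotes A1, A10 and A18. Embryo 6 was again the highest, and both pairs of groups overlapped.

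The channels and transporters of fluid secretion covered a wide range of levels. Kcne2, a potassium channel subunit of the apical membrane, had a mean of 11.7 ± 1.49 RPKM (SD, n = 12). Kcne2 lay at 25.9, 19.7 and 21.5 CPM in LC1 wild types 6, 26 and 73 and at 20.7, 19.8 and 16.1 CPM in knockouts 7, 22 and 71. RKI embryos had 20.4, 20.4 and 25.3 CPM for wild types A2, A9 and A16 and 19.8, 18.7 and 20.0 CPM for homozygotes A1, A10 and A18. Embryos 6 and A16 were the 2 highest, 71 was the lowest, and the RKI groups did not overlap. Aqp1, the water channel of the apical membrane, had 7.45 ± 0.817 RPKM (SD, n = 12). Aqp1 lay at 24.2, 20.97 and 17.99 CPM in LC1 wild types 6, 26 and 73 and at 21.03, 20.6 and 16.9 CPM in knockouts 7, 22 and 71. The RKI embryos had 19.3, 20.5 and 20.7 CPM for wild types A2, A9 and A16 and 19.5, 16.1 and 17.6 CPM for homozygotes A1, A10 and A18. Embryo 6 was the highest, and A1 lay above A2, so the RKI groups overlapped by that 1 embryo.

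Slc4a5 encodes a sodium bicarbonate cotransporter, and its mean was low at 1.69 ± 0.276 RPKM (SD, n = 12). Slc4a5 lay at 11.004, 9.99 and 8.41 CPM in LC1 wild types 6, 26 and 73 and at 11.1, 10.6 and 7.52 CPM in knockouts 7, 22 and 71. In RKI the values were 11.1, 10.1 and 12.8 CPM for wild types A2, A9 and A16 and 8.06, 8.504 and 8.70 CPM for homozygotes A1, A10 and A18. The 3 RKI homozygotes were close together and below all RKI wild types, while the LC1 groups covered the same range. Clic6, a member of the chloride intracellular channel family, had 10.9 ± 1.92 RPKM (SD, n = 12). Clic6 lay at 37.5, 46.8 and 45.6 CPM in LC1 wild types 6, 26 and 73 and at 43.9, 46.2 and 36.8 CPM in knockouts 7, 22 and 71. Clic6 in RKI was at 43.7, 36.8 and 61.8 CPM for wild types A2, A9 and A16 and 41.9, 35.8 and 37.8 CPM for homozygotes A1, A10 and A18. A16 stood above the other 11 embryos, and embryo 6, high for most of the genes, was among the lower ones.

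Calml4 encodes a calmodulin-like protein and had 3.36 ± 0.854 RPKM (SD, n = 12). Calml4 lay at 5.06, 2.95 and 2.57 CPM in LC1 wild types 6, 26 and 73 and at 2.83, 2.37 and 2.70 CPM in knockouts 7, 22 and 71. Its RKI libraries had 2.06, 2.80 and 3.199 CPM for wild types A2, A9 and A16 and 2.43, 3.195 and 2.63 CPM for homozygotes A1, A10 and A18. Embryo 6 stood far above the other 11, both pairs of groups overlapped, and the levels rest on 50 to 102 counts a library. Kl encodes klotho, a co-receptor for a fibroblast growth factor that the epithelium also sheds, and it was the lowest of the 9 at 0.290 ± 0.0566 RPKM (SD, n = 12). Kl had 19 to 45 counts a library. It lay at 1.24, 1.26 and 1.86 CPM in LC1 wild types 6, 26 and 73 and at 1.01, 1.71 and 1.89 CPM in knockouts 7, 22 and 71. Kl in RKI was at 1.36, 1.71 and 1.22 CPM for wild types A2, A9 and A16 and 1.47, 1.33 and 1.72 CPM for homozygotes A1, A10 and A18. Its groups overlapped in both experiments, and embryos 6 and A16 were not high for it. Otx2, the homeobox transcription factor needed to form and keep the choroid plexus, had 11.4 ± 1.52 RPKM (SD, n = 12). Otx2 lay at 36.6, 38.0 and 40.5 CPM in LC1 wild types 6, 26 and 73 and at 38.8, 40.6 and 35.7 CPM in knockouts 7, 22 and 71. RKI libraries had 39.4, 32.9 and 52.7 CPM for wild types A2, A9 and A16 and 36.2, 37.7 and 36.4 CPM for homozygotes A1, A10 and A18. A16 was the highest and A9 the lowest of all 12, both RKI wild types, so the RKI homozygotes lay inside the wild-type range.

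**Figure D1:**
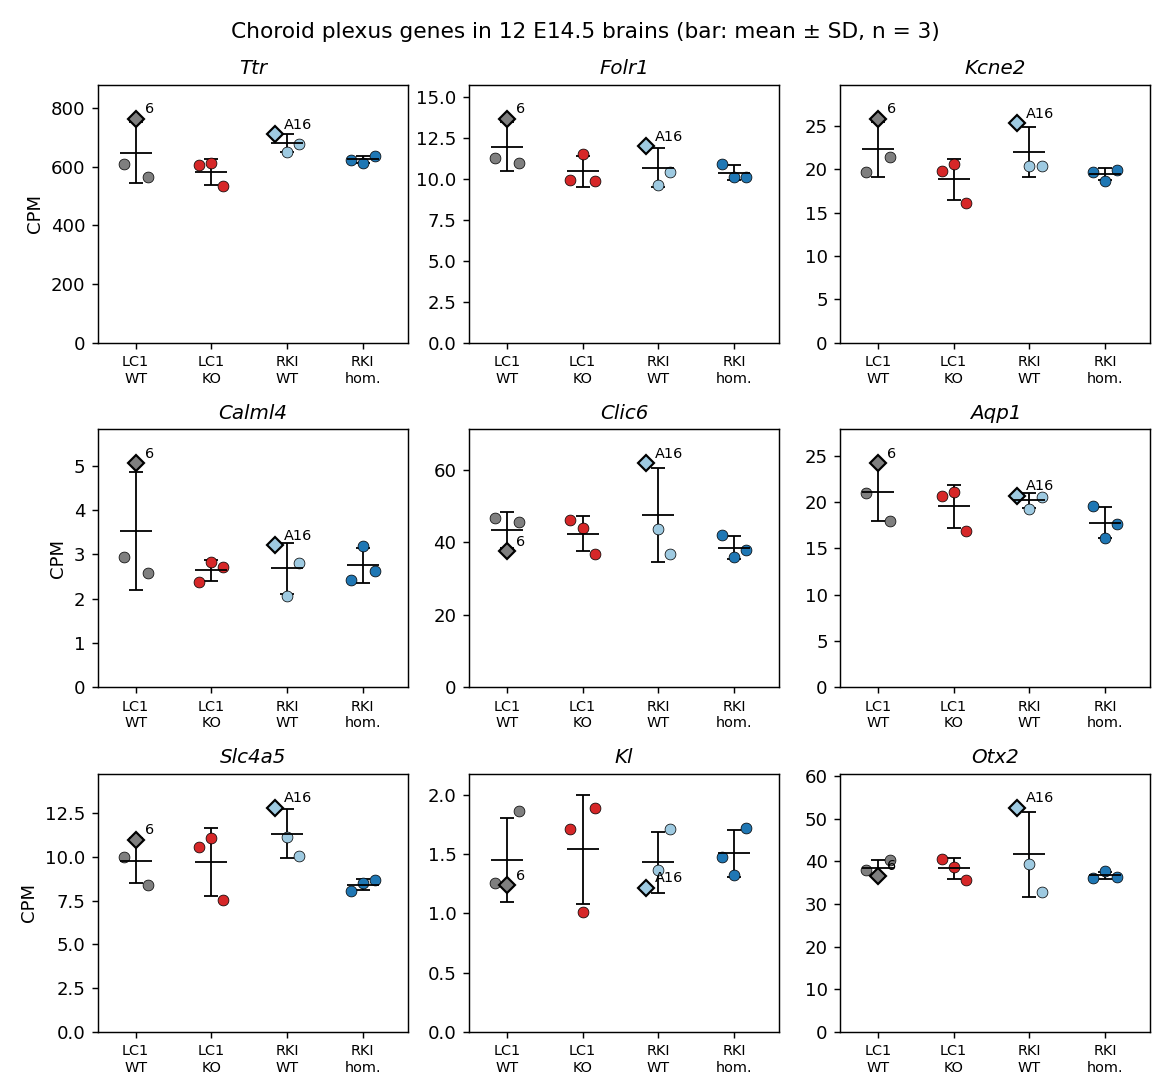
CPM of each gene (vertical axes, from 0) in the 4 groups (horizontal axes); points are embryos, bars the mean ± SD of 3 embryos, and diamonds embryos 6 and A16. Embryo 6 is the highest point for Ttr, Folr1, Kcne2, Calml4 and Aqp1, and A16 for Clic6, Slc4a5 and Otx2.

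Per length the order was Ttr, then Kcne2, Otx2 and Clic6, then Aqp1, Folr1, Calml4, Slc4a5 and Kl. The means of Kcne2, Otx2 and Clic6, at 11.7, 11.4 and 10.9 RPKM, differed by less than the SD over the 12 libraries of any of these 3 genes. The other neighbours in this order differed by more than either SD of the pair, as the RPKM values above show.

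By gene identifier, GENCODE M21 (GRCm38) places Folr1 at chr7:101858331-101870788, Kcne2 at chr16:92292389-92298129 and Clic6 on the same chromosome at chr16:92485736-92541243. Aqp1 lies at chr6:55336432-55348555 and Slc4a5 at chr6:83219828-83304945. Calml4 lies at chr9:62858080-62875921, Kl at chr5:150952607-150993817 and Otx2 at chr14:48657677-48673819. These are whole gene spans, and the build the authors counted on is not named. In GENCODE M21, Folr1, Calml4 and Otx2 overlap the genes Anapc15, Gm10653 and Otx2os1 on the opposite strand, and Clic6 and Otx2 overlap 2410124H12Rik and Gm49154 on the same strand. No source used here gives the strand setting of the counting, so reads of overlapping genes cannot be told apart.

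Within groups, Clic6 varied more than most genes of like level, and the place of several others depended on embryos 6 and A16. The SD of log2 CPM within groups was set beside that of the 500 genes nearest in mean level. Clic6, at 0.23, exceeded 99.2% of its like genes, Otx2, at 0.18, exceeded 93.6%, and Ttr, at 0.13, exceeded 89%. Kcne2, Calml4, Slc4a5 and Aqp1 exceeded 87.2%, 86.8%, 84.2% and 83.2%. Folr1 and Kl lay near the middle, above 49.2% and 56.6% of their like genes. Without embryos 6 and A16, Clic6, Slc4a5 and Aqp1 exceeded 95.4%, 88.6% and 83.8%, Otx2, Kcne2 and Ttr 73.6%, 71.6% and 70.2%, Kl 68.8%, and Calml4 and Folr1 38% and 17%. These ranks are a description with no test.

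Embryos that were high for one of the 9 genes tended to be high for others. Over the 12 libraries, 27 of the 36 pairs of genes had a Pearson r above 0 in log2 CPM, with a median of 0.45. The highest was 0.90 for Clic6 and Otx2, followed by 0.83 for Ttr and Kcne2. Kl was the exception, with r from -0.63 to -0.32 with all 8 others. Over the 12 libraries the SD of Kl was 19.4% of its mean CPM, beside 17.5% from counting alone at its mean count. Little of the spread of Kl thus lies beyond counting noise, and an opposite pattern was not tested. Leaving out A16 brought the median r to 0.21. All pairs share the same libraries and the same scaling, the experiments are pooled in them, and the values are a description with no p.

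**Figure D2:**
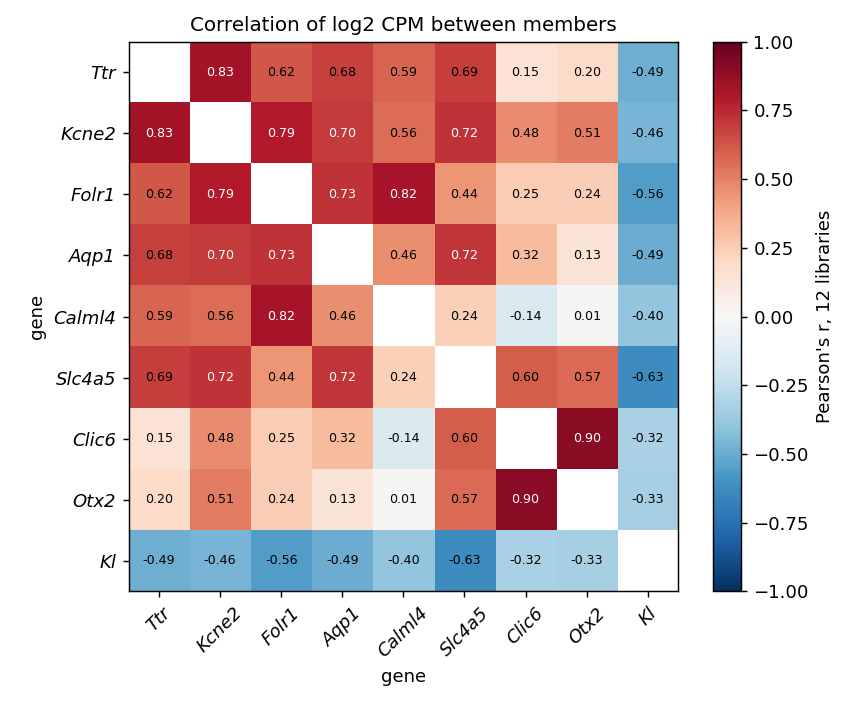
Pearson's r of log2 CPM over the 12 libraries for each pair of the 9 genes (both axes; red above 0, blue below). Ttr, Kcne2, Folr1 and Aqp1 form a block of r from 0.62 to 0.83, Clic6 and Otx2 reach 0.90 with each other, and Kl is below 0 with every other gene.

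Each gene was also set against the mean of the other 8. Kcne2 followed the others most closely, with r = 0.91 and Spearman's rho = 0.66. Without embryos 6 and A16, the 2 farthest from the median for it, r was 0.69, and r was 0.93 within the 6 LC1 libraries and 0.99 within the 6 RKI libraries. Folr1, Ttr, Aqp1 and Slc4a5 had r of 0.74, 0.70, 0.68 and 0.65 and rho of 0.60, 0.30, 0.69 and 0.45. Without embryos 6 and A16 these 4 values of r were 0.30, 0.18, 0.65 and 0.38, so the pooled r of Folr1, Ttr and Slc4a5 depended on these embryos. In the same order, r within the 6 LC1 libraries was 0.80, 0.94, 0.84 and 0.58. Within the 6 RKI libraries it was 0.78, 0.90, 0.57 and 0.74. The LC1 libraries include embryo 6 and the RKI libraries A16. Otx2, Clic6 and Calml4 had r of 0.47, 0.40 and 0.35 and rho of 0.32, 0.40 and 0.13. Leaving out A16 alone, r fell to -0.01 for Otx2 and to -0.02 for Clic6. Within LC1, Otx2 and Clic6 had r of -0.00 and -0.19, and within RKI 0.75 and 0.83, and without embryos 6 and A16 together r was 0.17 for Otx2 and 0.51 for Clic6. Kl had r = -0.62 and rho = -0.74, with r of -0.68 within LC1, -0.59 within RKI and -0.61 without embryos 6 and A16. With 19 to 45 counts a library, counting noise limits these values of Kl.

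**Figure D3:**
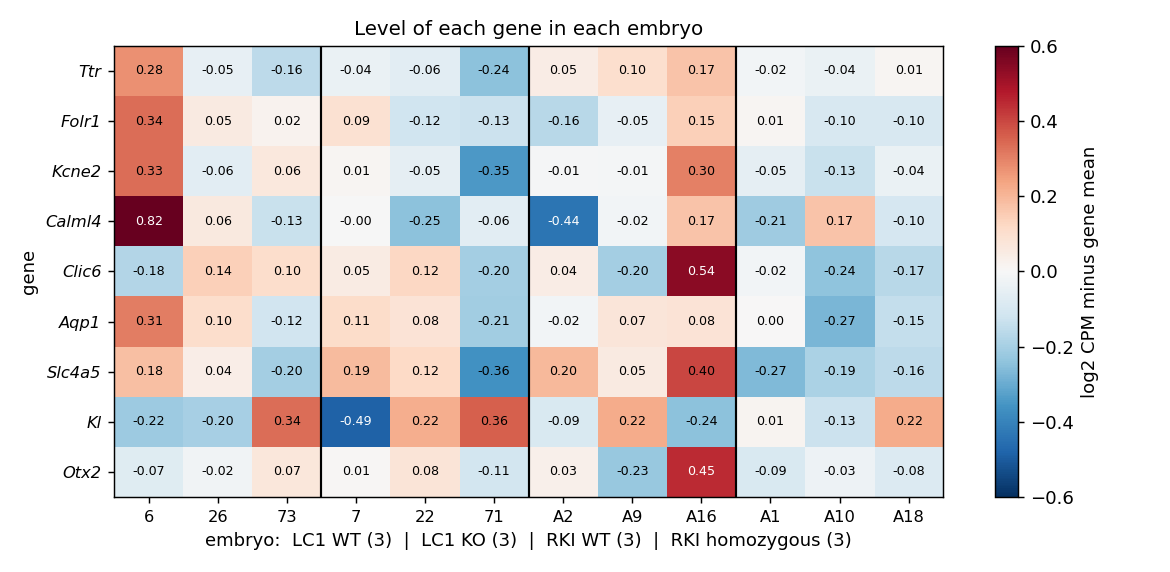
Level of each gene (rows) in each embryo (columns, by group) as log2 CPM minus the gene's mean over 12 libraries; colours end at ±0.6. Embryo 6 is above 0 for 6 of the 9 genes, A16 for 8, and knockout 71 for Kl alone.

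The genes whose pattern was most like the mean of the 9 were looked up among all other genes. Among 14206 other genes with a mean of 1 CPM or more, the 10 with the highest r were Zc3h14, Atf5, Slc6a15, Adk, Kiz, Cdk1, Gdap2, Nup43, Ccnd2 and Cops3, with r from 0.93 to 0.89. Without embryos 6 and A16 the r of these 10 lay between 0.34 and 0.86. None of these 10 is on any list used here. The largest list holds 50 of the 14206 genes and the lists together a small part of them, so this absence says little about the 9. For single genes, the nearest was Foxj1 for Slc4a5 at r = 0.92, Rps3 for Calml4 at 0.97, Gnpda2 for Clic6 at 0.94 and Esf1 for Kcne2 at 0.93. The nearest to Ttr was Cplx2 at 0.94, to Folr1 Zc3h15 at 0.94, to Aqp1 Tmem189 at 0.91 and to Kl Flad1 at 0.86. Without embryos 6 and A16, r with these nearest genes was 0.94 for Slc4a5, 0.88 for Calml4 and 0.79 for Folr1, the lowest. Foxj1, the master regulator of motile cilia, which choroid plexus epithelium carries, lay at 48.3 CPM in A16 and between 32.9 and 41.8 CPM in the other 11 embryos. Rps3, a ribosomal protein gene, lay at 595 CPM in embryo 6 and between 406 and 490 CPM elsewhere. Foxj1 and Rps3 were thus each highest in the embryo that was highest for Slc4a5 or Calml4. Both were picked for the highest r among all genes of 1 CPM or more over these same 12 libraries. A shared peak follows in part from that choice, and no link between the genes was tested.

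None of the 9 genes passed the threshold in either genotype, an edgeR quasi-likelihood adjusted p under 0.05 over all 16002 genes. In LC1 knockouts 7 of the 9 were lower and 2 higher, and 0 passed (background 0%). The number lower ran from 6 to 9 when 1 library was left out, so the split is not a settled direction. The median log2 fold change of the 9 was -0.11, beside -0.00 over all genes, of which 51.4% were below 0. At an unadjusted p under 0.05 there was 1 of 9, Kcne2, beside a background of 2.09%. In RKI homozygotes also 7 were lower and 2 higher, and 0 passed (background 0%), with 6 to 8 lower when 1 library was left out. The median was -0.17, beside 0.00 over all genes, of which 49.4% were below 0. These medians are the values of Aqp1 in LC1 and of Otx2 in RKI, and each of those 2 values turned sign when 1 library was left out. At an unadjusted p under 0.05 there were 2 of 9, Slc4a5 and Clic6, beside a background of 1.92%. DESeq2 listed 0 and 2 of the 9 in LC1 and RKI at that p, beside 183 and 177 of all 16002 genes. Limma-voom listed 0 and 1 of the 9, beside 331 and 311 of all genes, and neither tool called a gene of the 9. With no low-count filter edgeR listed 3 of the 9 in LC1 and 3 in RKI, beside 656 and 745 of 27458 genes, and called 0 of the 9.

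In LC1 the largest differences lay in Calml4, Kcne2 and Folr1. For Kcne2 the wild types averaged 22.3 ± 3.20 CPM and the knockouts 18.9 ± 2.41 CPM (SD, n = 3 each). Its log2 fold change was -0.24 (SE 0.114; 95% interval -0.48 to -0.00; edgeR adjusted p = 1). Calml4 had -0.43 (95% interval -0.93 to 0.06), with 3.52 ± 1.34 and 2.63 ± 0.237 CPM (SD, n = 3 each). Folr1 had -0.20 (95% interval -0.45 to 0.05) and Ttr -0.15 (95% interval -0.34 to 0.04). Aqp1, Clic6, Slc4a5, Otx2 and Kl had -0.11, -0.03, -0.01, 0.00 and 0.09. No gene of the 9 had LC1 groups that did not overlap, beside 3.81% of all genes with every knockout lower. Without embryo 6, Kcne2 was at -0.12, Calml4 at -0.07, Folr1 at -0.09 and Ttr at -0.01, and Aqp1 was at 0.01. The median of the 9 was then -0.03, and it was -0.06 without knockout 71 and -0.21 without wild type 73.

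In RKI the largest difference was in Slc4a5, where wild types averaged 11.3 ± 1.396 CPM and homozygotes 8.42 ± 0.329 CPM (SD, n = 3 each). Its log2 fold change was -0.43 (SE 0.139; 95% interval -0.72 to -0.13; edgeR adjusted p = 1.0), and in order of p it stood at place 32 among 16002 genes. Clic6 had -0.29 (95% interval -0.57 to -0.00; edgeR adjusted p = 1.0), with 47.4 ± 12.9 and 38.5 ± 3.10 CPM (SD, n = 3 each). Aqp1, Kcne2, Otx2 and Ttr had -0.18, -0.18, -0.17 and -0.12, and Folr1, Calml4 and Kl had -0.04, 0.04 and 0.09. Every homozygote was lower than every wild type for 3 of the 9, Ttr, Kcne2 and Slc4a5, beside 3.07% of all genes, and no gene of the 9 was separated the other way, beside 2.59%. Without A16, Slc4a5 was at -0.34, Clic6 at -0.09, Kcne2 at -0.07 and Otx2 at 0.01, and the median of the 9 was -0.07. Slc4a5 lay between -0.51 and -0.34 when each of the 12 libraries was left out in turn, and was not called in any of these fits.

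**Figure D4:**
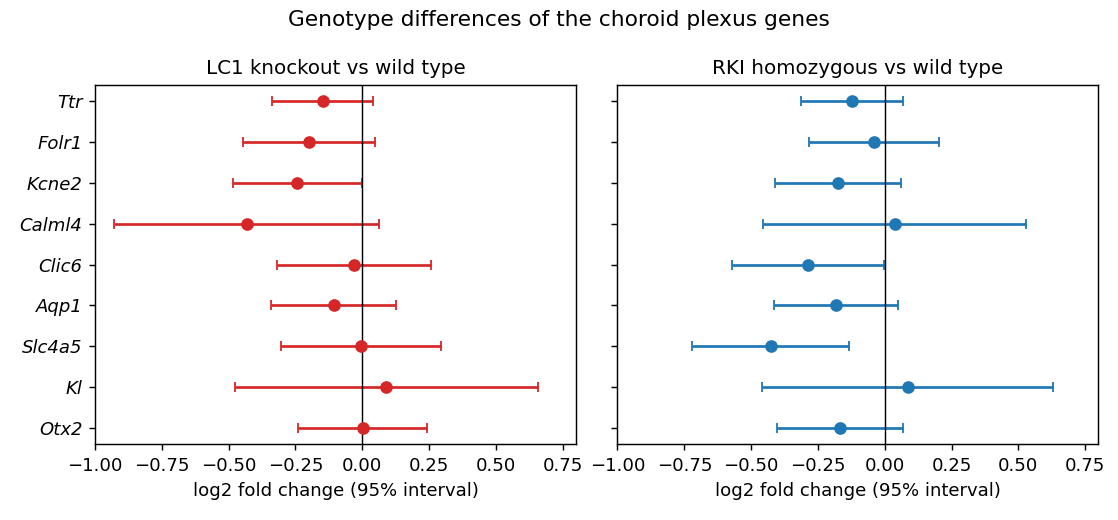
Log2 fold change with 95% interval (horizontal axes) of each gene in LC1 knockouts (left) and RKI homozygotes (right) against their wild types; all 12 libraries in 1 fit. The intervals exclude 0 only for Kcne2 in LC1 and for Slc4a5 and Clic6 in RKI, before adjustment.

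In the authors' deposited tables, with signs turned so that a negative value is lower in the mutant, Slc4a5 has a log2 fold change of -0.435 in RKI and Clic6 -0.29. In the authors' deposited table Kcne2 has -0.23 in LC1, and Ttr has -0.135 in LC1 and -0.12 in RKI. At an unadjusted p under 0.05 those tables list Ttr and Kcne2 in LC1 and Ttr, Clic6 and Slc4a5 in RKI. Ttr was thus listed there in both experiments but in neither by the edgeR fit used here. The share of all genes listed at that p in the authors' tables is not given here. Every adjusted p of the 9 genes in the authors' deposited tables lies between 0.937 and 0.997.

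The 2 genotype effects were compared directly in the same fit. For 0 of the 9 did they differ by adjusted p (background 0%), and 1 of 9, Slc4a5, had an unadjusted p under 0.05, beside 2.42% of all genes. The RKI effect on Slc4a5 was lower than the LC1 effect by 0.42 on the log2 scale, at -0.42 (95% interval -0.84 to -0.00; edgeR adjusted p = 1.0). This difference ran from -0.57 to -0.32 when 1 library was left out. Its unadjusted p was no longer under 0.05 without 7, 22, 26, 73, A1, A16 or A18, nor with DESeq2, limma-voom or log2 RPKM. Calml4 had the largest difference the other way, 0.47 (95% interval -0.23 to 1.17), which was 0.11 without embryo 6. Between the wild types of the 2 experiments, which also differ in sex, 0 of the 9 differed (background 0.0125%), with log2 differences of RKI over LC1 from -0.26 for Calml4 to 0.12 for Slc4a5.

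None of the other genes of this epithelium passed the test. Of 53 further choroid plexus genes chosen with earlier results known, 50 were tested. They include the insulin-like growth factor gene Igf2 and its binding protein gene Igfbp2, the transporter gene Abcg2, the roof plate factor gene Msx1 and the claudin genes Cldn1, Cldn2 and Cldn3. In LC1, 35 were lower and 15 higher with a median of -0.07, and 0 passed; in RKI, 34 were lower and 16 higher with a median of -0.04, and 0 passed. The 3 with the smallest p were Cldn3 at 0.30, Col8a1 at -0.37 and Abcg2 at -0.19 in LC1, and Ezr at -0.27, Cldn3 at -0.38 and Trpm3 at -0.17 in RKI. Their median r with the mean of the 9 genes was 0.40, beside 0.01 over all 14206 genes, and 0.28 without embryos 6 and A16. This level was not particular to them. Among the marker lists described below, endothelium had 0.41, eye 0.40, erythroid blood 0.38 and skin 0.46 over 2 genes. Brain tissue had 0.00 and liver and yolk sac -0.24 over 3 genes. Without embryos 6 and A16, endothelium had 0.25, eye 0.07, erythroid blood -0.06 and skin 0.42. Over the 12 libraries r of the 50 choroid plexus genes ranged from 0.88 for Igfbp2 to -0.56 for Slc16a8. Cldn2, the paracellular cation channel of this epithelium, had r = -0.33, and Kcnj13, a potassium channel of its apical membrane, 0.65.

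Genes of the tissue around the choroid plexus were counted in the same way, with r given for those of 1 CPM or more. The lists share some genes, and a shared gene is counted on each of its lists. Msx1 is on the wider choroid plexus and roof plate lists, and Gmnc on the roof plate and cilia lists. Wnt1 is on the roof plate and midbrain lists. Of 22 roof plate and cortical hem genes, the region from which the choroid plexus arises, 16 were lower in LC1 and 15 in RKI, with 0 called and a median r of 0.47 with the mean of the 9 over 20 genes, or 0.30 without embryos 6 and A16. Wnt3a, a signal of the hem, had -0.71 in RKI, the lowest of the list, and Wnt1 had -0.78 in LC1 but 0.66 in RKI, the highest. Of 28 motile cilia genes 18 were lower in LC1 and 23 in RKI, with 0 called and a median r of 0.35, or 0.18 without embryos 6 and A16. Summed, these cilia genes lay at 469 CPM in A16 and at 375 to 413 CPM in the other 11 libraries. Tekt1, a microtubule protein of cilia, had -0.57 and Cfap43 0.25 in LC1, and Foxj1 -0.19 and Cfap44 -0.50 in RKI. Of 11 partners in folate, thyroid hormone and klotho biology, 4 were lower in LC1 and 6 in RKI, with 0 called and a median r of 0.01 over 10 genes.

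Markers of other cell types also differed between embryos, and their part in the results was not tested. Of 15 meninges and mesenchyme genes, 14 were lower in LC1 and 6 in RKI, with 0 called and a median r of 0.57 with the mean of the 9, or 0.31 without embryos 6 and A16. Their sum was 1250 to 1494 CPM in LC1 wild types and 1065 to 1373 CPM in knockouts, and 1177 to 1404 and 1192 to 1359 CPM in RKI wild types and homozygotes. Midbrain and diencephalon genes, which share Otx2 as a regulator, summed to 317 to 439 CPM in RKI wild types and 454 to 503 CPM in RKI homozygotes, with 12 of 16 higher and 0 called. Their median r with the mean of the 9 was -0.40 over 11 genes, or -0.16 without embryos 6 and A16. Tcf7l2, a thalamic factor, had 0.51 in RKI. In LC1 their sums overlapped, at 475 to 514 CPM in wild types and 460 to 539 CPM in knockouts. Endothelial genes summed to 466 to 484 CPM in LC1 wild types and 434 to 533 CPM in knockouts, with 9 of 11 lower, and to 458 to 508 and 466 to 486 CPM in RKI, with 8 of 11 lower.

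Ttr is also made by liver and by the eye. Of 18 liver and yolk sac markers, 5 passed the filter on low counts and they summed to 6.72 to 9.34 CPM, while Alb, Afp and Apob, which define these tissues, did not pass and Serpina1b had 0 counts in every library. Of 17 eye markers, 9 passed, summing to 54.2 to 65.1 CPM, and the pigment epithelium genes Rpe65, Lrat and Tyr were among the 8 that did not. Erythroid genes ranged from 1108 to 2308 CPM and overlapped between genotypes in both experiments. Of 9 skin and epithelium genes 4 were tested; they summed to 6.97 to 7.21 CPM in RKI wild types and 5.51 to 5.72 CPM in RKI homozygotes, and all 4 were lower in RKI with 0 called. Their LC1 sums overlapped, and Krt5, Krt14 and Trp63, which define skin, did not pass the filter. Brain tissue markers summed to 10347 to 11480 CPM in all 12 libraries.

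**Figure D5:**
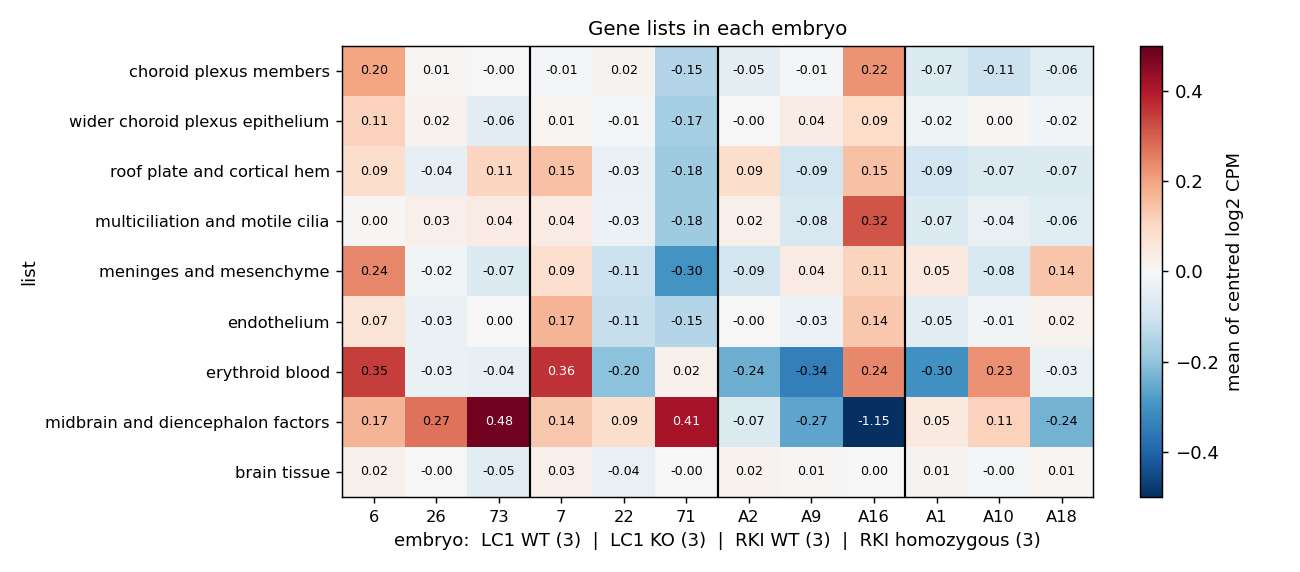
Mean of log2 CPM, each gene centred on its own mean, for the 9 genes and 8 marker lists (rows) in each embryo (columns, by group); colours end at ±0.5. The 9 genes and the motile cilia list are highest in A16, at 0.22 and 0.32, where the midbrain and diencephalon list is lowest at -1.15.

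No isoform passed the test. Of 39 annotated transcripts of the 9 genes, 20 had a mean estimated count of 10 or more and 21 were tested, and 0 passed by edgeR in either experiment, beside 0% of 47772 transcripts. At an unadjusted p under 0.05 there were 0 of 21 in both, beside 2.97% of all transcripts in LC1 and 2.45% in RKI. Ttr, Aqp1 and Kl were each estimated from a single transcript. Shares are of the gene's summed transcript RPKM. Otx2 was spread over 6 transcripts with a mean estimated count of 10 or more, led by Otx2-004 with a mean share of 33.4%, Otx2-001 with 23.9% and Otx2-002 with 20.1%. Folr1 was split between Folr1-006 at 42.6%, Folr1-016 at 36.2% and Folr1-015 at 17.9%. Kcne2-001 held 97.2% of Kcne2, and Kcne2-002 was listed at 0 in 9 of the 12 libraries. The 3 above 0 were mutants, 22, A1 and A18, with 42.0, 82.4 and 67.8 estimated counts, while all 6 wild types and the other 3 mutants were at 0, and edgeR did not call it in LC1 or RKI. The split of Calml4 was not stable between embryos, with Calml4-007 between 0% and 90.0%. The leading Slc4a5 transcript, ENSMUST00000039212, held 46.2% on average and from 0% to 80.5% by library, so the Slc4a5 difference was not assigned to an isoform.

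Promoter sequences from RefSeq (GRCm38.p6) were available for 6 of the 9 genes, as 10 windows of 250 bases before an annotated start. They were searched on both strands for TAATCC, the core motif of OTX factors, and TGTTTAC, a forkhead motif that FOXJ1-type factors can bind. TAATCC or its reverse was found in 1 of the 10 windows, in 1 gene, Otx2, beside 6.245% of 32536 windows of that length, and TGTTTAC in 0 of 10, beside 3.172%. A match is a description of letters and not a site. The first window is shown because Kcne2 followed the other genes most closely, the second because Slc4a5 had the largest RKI difference, and the third because it holds the match, in capitals and on the reverse strand, with its first base at position -211 from the start. They run 5′ to 3′ on the strand of the gene, at chr16:92292139-92292388 (plus), chr6:83237125-83237374 (plus) and chr14:48665110-48665359 (minus). The Slc4a5 and Otx2 windows lie inside the gene spans given above, so each precedes an internal start and not the outermost one.
Kcne2: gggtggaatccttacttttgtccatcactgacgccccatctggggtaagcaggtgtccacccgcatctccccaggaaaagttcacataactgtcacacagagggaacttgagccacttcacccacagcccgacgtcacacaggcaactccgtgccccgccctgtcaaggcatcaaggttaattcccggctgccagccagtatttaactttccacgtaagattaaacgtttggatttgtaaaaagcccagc
Slc4a5: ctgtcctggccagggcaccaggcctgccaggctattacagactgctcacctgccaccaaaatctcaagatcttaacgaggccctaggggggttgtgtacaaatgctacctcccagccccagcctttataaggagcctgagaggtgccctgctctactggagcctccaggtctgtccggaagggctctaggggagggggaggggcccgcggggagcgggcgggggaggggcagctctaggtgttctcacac
Otx2: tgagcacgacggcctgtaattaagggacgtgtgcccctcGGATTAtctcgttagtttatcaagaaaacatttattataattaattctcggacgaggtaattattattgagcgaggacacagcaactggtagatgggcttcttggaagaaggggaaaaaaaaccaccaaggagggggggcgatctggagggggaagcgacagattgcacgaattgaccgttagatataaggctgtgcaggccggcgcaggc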

How the data were processed

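RNA from 12 mouse embryo brains was sequenced after oligo-dT library preparation, per the labels' protocols. The authors deposited counts per gene, RPKM per gene, estimated counts per transcript, and their own comparisons as log2 fold changes with p-values. The submitters' processing notes name featureCounts 1.4.5 and Subread, STAR 2.0.4b, limma and edgeR, without roles. No source used here gives the genome build, annotation release or strand setting. The deposited percent GC content was not used. The deposited RPKM follows the counts to within 0.008% over 12441 genes.

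The count table holds 41264 rows for 40690 identifiers; 574 rows repeat one with the same counts and were dropped. Counts were tested with edgeR 4.0.16 (R 4.3.3; limma 3.58.1 and DESeq2 1.42.0 as alternatives), quasi-likelihood with TMM scaling, filterByExpr, 4 group means and sex over all 12 libraries, which left 7 residual degrees of freedom, and Benjamini-Hochberg adjustment over 16002 genes at 0.05. Transcript estimates were rounded. Log2 CPM used a prior count of 2. Pseudocount for log2 RPKM was 0.1. The test was checked on simulated data. The members and lists were chosen with earlier results of these data known, and so no p is given for the correlations. Genes are named by a rule: the members, the 10 most like their mean and the nearest to each, the 3 of smallest p in each list, and transcripts with a mean estimated count of 10 or more; a text choice was made among these, and Cldn1, Cldn2, Igf2, Msx1, Kcnj13, Igfbp2 and Slc16a8 were named after their values were seen. The gene nearest to Otx2 is not reported here.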

Additional observations from a re-analysis of the deposited data

How the results depend on the processing

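None of the 9 genes passed in any comparison under any alternative run: DESeq2 size factors, no low-count filter, DESeq2, limma-voom, only the 6 libraries of an experiment, no sex term, a block over neighbouring embryo numbers, log2(RPKM + 0.1), and each of the 12 libraries left out. For their transcripts, DESeq2 size factors, no filter and each library left out were run, and none passed. Over all genes, 4 were called in LC1 and 26 in RKI with no filter, beside 0 and 0.

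Leaving out 1 library, the LC1 median ran from -0.21 (without 73) to -0.0319, and the RKI median from -0.24 to -0.07. The median r ran from 0.21 (without A16) to 0.51. Embryos with neighbouring numbers correlated in their deviations from group means at 0.098 to 0.195, and no label ties them to litters. With the replicate block 0 of the 9 genes passed in LC1 or RKI, and 0 and 3 of all genes.

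These log2 fold changes turned sign in at least 1 fit, so the counts of lower and higher genes include genes with no settled direction; their ranges with 1 library left out follow. In LC1 they were Clic6 -0.12 to 0.0612, Aqp1 -0.21 to 0.00629, Slc4a5 -0.10 to 0.15, Kl -0.0564 to 0.31 and Otx2 -0.0437 to 0.0522. In RKI they were Folr1 -0.13 to 0.0529, Calml4 -0.11 to 0.25, Kl -0.0506 to 0.31 and Otx2 -0.34 to 0.0113. For the difference between the effects they were Ttr -0.11 to 0.11, Kcne2 -0.0542 to 0.17, Aqp1 -0.19 to 0.0263, Kl -0.23 to 0.22 and Otx2 -0.34 to 0.00809. For RKI over LC1 wild types they were Ttr -0.0309 to 0.20, Kcne2 -0.19 to 0.015, Calml4 -0.45 to 0.10, Clic6 -0.22 to 0.13, Aqp1 -0.28 to 0.00615, Kl -0.44 to 0.25 and Otx2 -0.21 to 0.31. The r with the mean of the others ran from -0.0161 to 0.82 for Clic6 and from -0.0114 to 0.74 for Otx2. Slc4a5 in LC1 was 0.00361 with no filter, Otx2 in LC1 was -0.00393 on log2 RPKM, and the Kl difference was 0.015 by limma-voom and 0.0042 on log2 RPKM. With no sex term the wild-type differences of Clic6, Kl and Otx2 were 0.13, -0.0228 and 0.12. With embryos 6 and A16 both left out, an alternative chosen after seeing the data, the median r with the mean of the 9 turned sign for liver and yolk sac genes (0.0234), erythroid genes (-0.0583), brain tissue genes (-0.0536) and all other genes (-0.00398). The cause was not tested. With A9 or A10 left out, the sex term makes RKI a comparison of 4 males. Counts of 19 to 102 a library limit Kl and Calml4.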
